A study of Mus musculus with 24 samples.

Results

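The HoxC genes are the 9 homeobox genes Hoxc4, Hoxc5, Hoxc6, Hoxc8, Hoxc9, Hoxc10, Hoxc11, Hoxc12 and Hoxc13, which lie side by side on mouse chromosome 15. The members are the genes with these symbols, 9 of the 19953 genes in the deposited expression table. The table was made from polyA RNA of mouse embryonic stem cells in 24 libraries, 3 for each combination of genotype (4) and day (2), which gives 8 groups. The genotypes were the double-KO, the Mll2-KO, the Mll1-KO and wild type (WT). The Mll1-KO was made by CRISPR deletion in a stem cell line with a Cre-inducible knockout of Mll2, and the Mll2-KO and double-KO states were induced with 800 nM 4-hydroxytamoxifen (4-OHT) for 48 h. WT and Mll1-KO cells carried the label untreated, so loss of Mll2 and exposure to 4-OHT cannot be told apart in any comparison. All 4 genotypes go back to the 1 inducible line per the labels, which do not say how many clones were used. Day 0 cells grew on gelatin in 15% serum with LIF, the cytokine that keeps stem cells undifferentiated. Day 4 cells had been differentiated for 4 days in 10% serum with 1 µM retinoic acid (RA). Whether replicates came from separate cultures is not stated in the labels, and p-values therefore measure only the spread between these samples, which may be technical.

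Hox genes encode transcription factors that give cells their position along the head to tail axis. Within a cluster, genes at the 3′ end are used earlier and further towards the head than genes at the 5′ end, and RA is a classical inducer of this sequence. MLL1 (gene Kmt2a) and MLL2 (gene Kmt2b) are Trithorax-group enzymes that methylate lysine 4 of histone H3, and Hox genes are the best known targets of MLL1. Polycomb repressive complexes act on the same clusters in the opposite direction.

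Values below are normalized counts, the authors' read counts of a gene divided by a size factor of the library. Changes are log2 fold changes of the normalized count plus 1, and a gene counts as called where limma's p, adjusted by Benjamini-Hochberg over all genes tested, is below 0.05. Recovered totals were 10.7 to 17.1 M (mega) reads per library at day 4 and 17.7 to 22.8 M at day 0. Kmt2a checked the Mll1 label at day 4, at 88.4 to 132 in double-KO, 2293 to 2436 in Mll2-KO, 42.1 to 69.5 in Mll1-KO and 2029 to 2239 in WT libraries. A count over the whole Kmt2b gene does not show whether single exons were removed and checked nothing on the Mll2 label. The 8 stem cell markers (Pou5f1, Nanog and others) summed to 116818 to 136976 over the day 0 libraries and 1967 to 7948 over the day 4 libraries, and none was at 0 in any group.

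The cluster spans 116 kb on the plus strand, chr15:102921103-103036852 in mm10 with GENCODE mouse release 21 gene models, and runs from Hoxc13 at its 5′ end to Hoxc4 at its 3′ end. Hoxc13 lies at chr15:102921103-102928814, Hoxc12 at chr15:102936757-102938609, Hoxc11 at chr15:102954427-102957708, Hoxc10 at chr15:102966796-102971893 and Hoxc9 at chr15:102976439-102985099. Hoxc8 follows at chr15:102990607-102994111, Hoxc6 at chr15:102998257-103011881, Hoxc5 at chr15:102967443-103017429 and Hoxc4 at chr15:103018934-103036852. Hoxc5 overlaps others because transcript Hoxc5-202 starts far upstream, with a first exon of 166 bases (chr15:102967443-102967608) that lies inside the first exon of Hoxc10. Its first intron contains all of Hoxc9, Hoxc8 and Hoxc6. Of the 50-base stretches of the mature transcripts, 3.92% in Hoxc5 and 6.40% in Hoxc10 are shared with the other gene, 1.44% in Hoxc9 and 0.43% in Hoxc8 are shared with genes outside the cluster, and 0 in the other 5 genes are shared. How reads of the shared exon were divided between Hoxc5 and Hoxc10 is not given in the sources used here.

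The splice junctions that tell Hoxc10 and Hoxc5-202 apart are printed because these are the HoxC genes that share an exon. Each line gives the last 30 bases of the shared part in lower case (chr15:102967579-102967608, plus strand, from the GENCODE transcripts) and the first 30 bases of the next coding exon in capitals, at chr15:102970798-102970827 for Hoxc10 and chr15:103015228-103015257 for Hoxc5.
Hoxc10-201: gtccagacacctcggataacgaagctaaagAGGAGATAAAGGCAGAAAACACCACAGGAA
Hoxc5-202: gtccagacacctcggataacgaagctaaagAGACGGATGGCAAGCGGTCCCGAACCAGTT
Of the 30 capital bases, 7 are identical position by position, the opening AG among them. Reads that cross the junction and extend beyond that AG can distinguish the genes, and reads wholly inside the 166 bases do not.

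A pair of microRNAs from RefSeq (GRCm38.p6) also lie in the long Hoxc5 intron, and their mature sequences are given with the seed, bases 2 to 8, in capitals. miR-196a is known for binding Hox mRNAs, Hoxc8 among them. Mature microRNAs are not captured by polyA libraries and no level of either is used here.
mmu-miR-196a-5p, between Hoxc10 and Hoxc9, chr15:102973365-102973386, plus strand: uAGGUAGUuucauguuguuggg
mmu-miR-615-3p, between Hoxc6 and the last exons of Hoxc5, chr15:103014969-103014990, plus strand: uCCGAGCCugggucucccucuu

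For the response to RA, 1 of the 9 genes, Hoxc4, has a RefSeq promoter window (chr15:103034145-103034444, 250 bases before to 50 after the start). The GENCODE model of Hoxc4 begins upstream of it, at chr15:103018934. The window thus covers a start inside that model and not its 5′ end. It holds the core motif AGGTCA of retinoic acid receptors, searched on both strands, once, 146 bases before the start. Of 32851 promoter windows of this length, 16.3% hold it. The direct repeat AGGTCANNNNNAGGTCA was not in this window, and 0.00913% of windows hold it. The 30 bases around the motif are shown with the motif in capitals, which reads AGGTCA on the minus strand.
Hoxc4 promoter, chr15:103034237-103034266, plus strand: ggcgctgccctgTGACCTacacagactgca

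At day 4 Hoxc4 to Hoxc10 stood at 29.1 to 899 normalized counts in every library, against at most 16.1 at day 0. Hoxc13 was already present at day 0, and Hoxc11 and Hoxc12 were at or below 9.42 in every library of both days. Of the 9 genes, 7 reached a normalized count of 10 in at least 3 libraries and were tested. Hoxc11 and Hoxc12 did not reach it, and a gene that passed only through its day 4 libraries had to be higher there. All tested genes except Hoxc13 passed in this way. In RNA from whole cultures, more expressing cells and more RNA per cell cannot be told apart.

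In double-KO cells 7 of 7 tested genes rose at day 4 against day 0, where 43.2% of 15114 genes tested rose (83.3% were called in either direction). In Mll2-KO cells 6 of 7 rose, against 41.9% of all genes (81.5% in either direction), in Mll1-KO cells 7 of 7, against 43.7% (84.1%), and in WT cells 7 of 7, against 43.0% (82.9%). The median log2 change of the 7 genes was 5.61 in double-KO, 4.90 in Mll2-KO, 6.06 in Mll1-KO and 6.78 in WT cells, and that of all genes lay between 0.03 and 0.06. Apart from Hoxc13, these counts and medians largely restate the filter and are no test of a rise. Fibroblast markers, 11 genes of mesenchymal cells that use HoxC genes, summed to 9454 to 18487 over the day 4 libraries and 230 to 897 over the day 0 libraries, where Postn, Dcn and Lum were each at 0 in at least 1 genotype. Their part in the day 4 levels was not tested.

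Hoxc8, which acts in the brachial spinal cord and the rib-bearing vertebrae, had 0 reads in the 3 double-KO and the 3 WT libraries of day 0. It was at least 244-fold higher at day 4 in double-KO and at least 316-fold higher in WT cells, with a floor of 3 reads per library for the empty groups. Mll2-KO and Mll1-KO cells had 3 reads each over their day 0 libraries, and the ratios of day 4 to day 0 were 623 (95% interval 213 to 3030) in Mll2-KO and 876 (299 to 4250) in Mll1-KO cells. Intervals and floors cover counting error only, since reads without molecular identifiers are not independent molecules.

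Hoxc9, a thoracic gene that sets motor neuron columns, had 0 reads in the Mll1-KO libraries of day 0 and was at least 179-fold higher there at day 4. The ratio of day 4 to day 0 was 158 (76.4 to 395) in double-KO, 154 (77.9 to 358) in Mll2-KO and 181 (98.2 to 379) in WT cells. Hoxc5 rested on 1, 1, 2 and 5 reads at day 0 in double-KO, Mll2-KO, Mll1-KO and WT cells, and its ratio in WT was 228 (97.2 to 703). Hoxc6, a gene of the thoracic region and of mammary development, had a ratio of 111 (19.4 to 4440) in double-KO, 36.9 (16.6 to 102) in Mll2-KO, 66.7 (30.3 to 183) in Mll1-KO and 212 (72.2 to 1030) in WT cells. These intervals overlap across genotypes.

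Hoxc4, at the 3′ end, had a low level at day 0, with 0.84 to 9.86 in double-KO, 8.95 to 15.3 in Mll2-KO, 4.22 to 9.26 in Mll1-KO and 6.21 to 16.1 in WT libraries. Its ratio of day 4 to day 0 was 48.9 (29.4 to 88.0) in double-KO, 15.4 (11.2 to 21.7) in Mll2-KO, 76.5 (49.8 to 124) in Mll1-KO and 34.1 (24.8 to 48.0) in WT cells. Over libraries, the Mll2-KO differed from WT in this change by -1.20 on the log2 scale, which was not called (adjusted p = 0.093, limma) and passed with edgeR (adjusted p = 0.030) and DESeq2 (0.0078), among others. Hoxc10, a gene of lumbar motor neurons and hindlimb, had a ratio of 11.0 (6.16 to 21.4) in double-KO, 15.8 (9.49 to 28.2) in Mll2-KO, 97.9 (33.0 to 478) in Mll1-KO and 48.4 (25.1 to 107) in WT cells.

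Hoxc13, at the 5′ end and required for hair shafts and nails, behaved differently from the other tested genes in size. Its log2 change at day 4 against day 0 was 1.68 (SE 0.21, adjusted p = 3.7e-08, limma) in double-KO, 1.76 (adjusted p = 1.4e-08) in Mll1-KO and 1.04 (adjusted p = 6.6e-05) in WT cells. In Mll2-KO cells it was 0.42 (adjusted p = 0.066) and not called, with 160.0 to 184 at day 4 and 108 to 143 at day 0, groups that do not overlap. That value passed under column totals (adjusted p = 0.050), edgeR (0.030), DESeq2 (0.016) and a fit of the 2 groups alone (0.015).

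**Figure D1:**
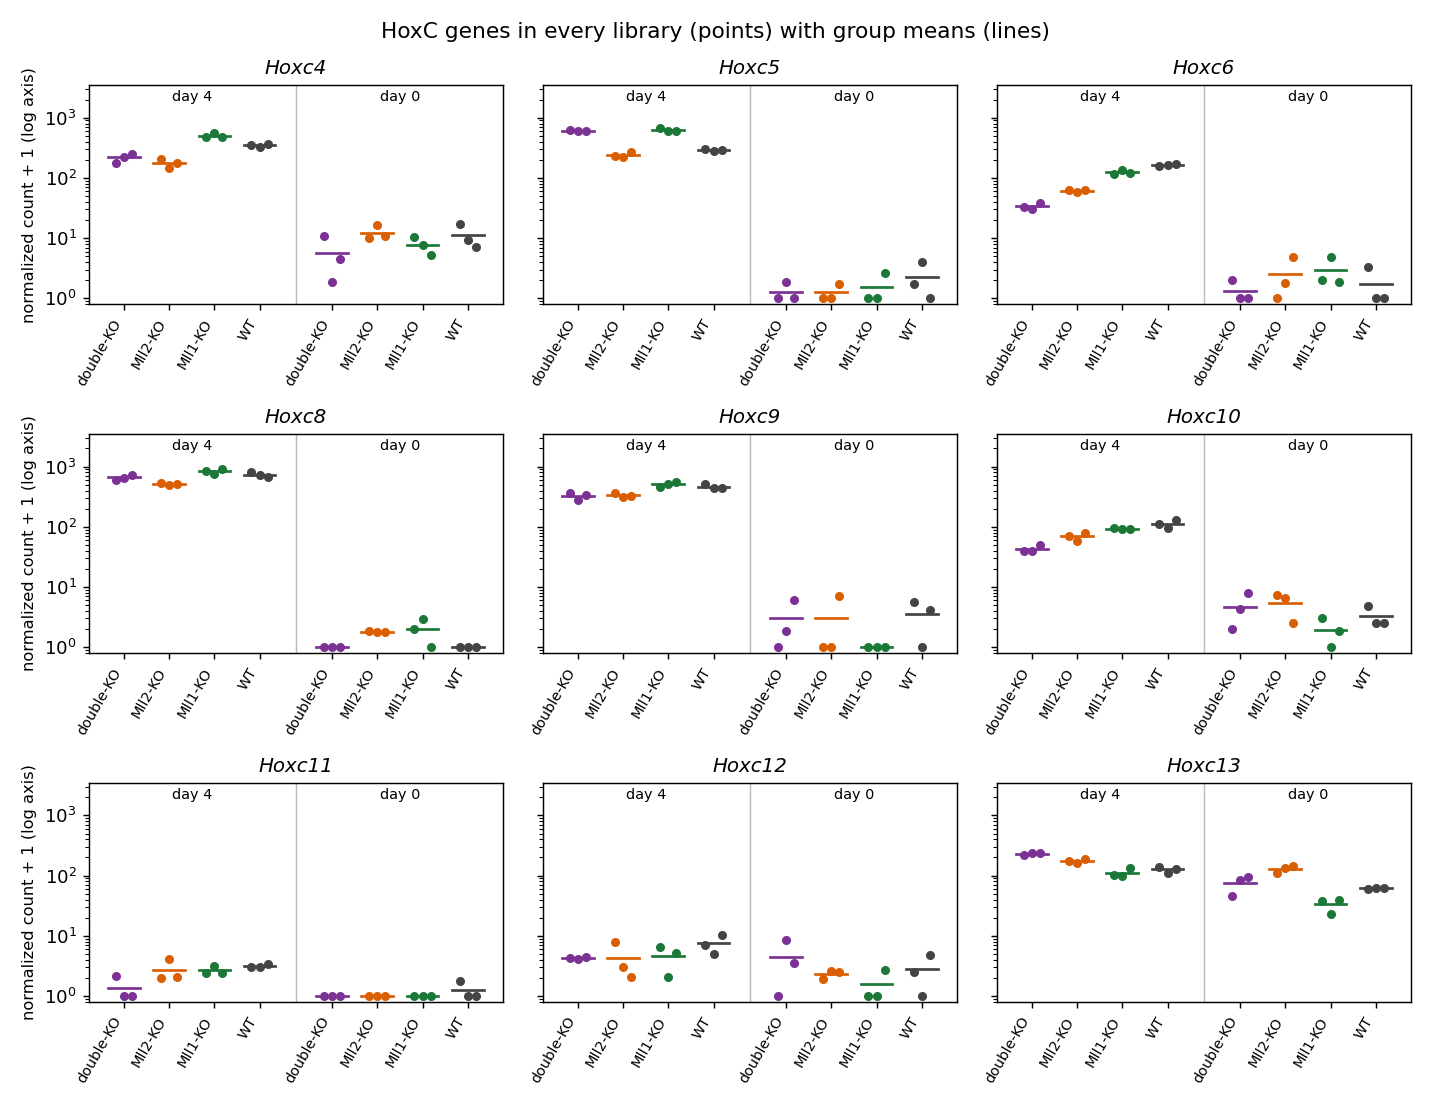
Normalized count plus 1 on a log axis for each HoxC gene, with 1 point per library and a line at the mean of the 3 libraries of a group, day 4 left of day 0. Hoxc8 has 484 to 899 at day 4 and at most 1.95 at day 0, whereas Hoxc13 has 99.3 to 238 at day 4 and 22.5 to 143 at day 0.

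Per length, as normalized counts per kb of exon, the order of the genes at day 4 did not follow their order along the chromosome. In double-KO cells the order was Hoxc8 (232 per kb), Hoxc5 (197), Hoxc9 (134), Hoxc13 (93.7), Hoxc4 (85.2), Hoxc10 (22.1), Hoxc6 (13.6), Hoxc12 (3.18) and Hoxc11 (0.18). In WT cells it was Hoxc8 (257 per kb), Hoxc9 (190.2), Hoxc4 (136), Hoxc5 (94.2), Hoxc6 (67.8), Hoxc10 (58.8), Hoxc13 (51.2), Hoxc12 (6.31) and Hoxc11 (1.05). The libraries of neighbouring genes in this order overlapped for Hoxc13 and Hoxc4 in the double-KO, and for Hoxc6, Hoxc10 and Hoxc13 in WT, and otherwise did not. Hoxc5 thus had rank 2 in the double-KO and rank 4 in WT, and Hoxc6 rank 7 in the double-KO and rank 5 in WT.

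In Mll2-KO cells Hoxc8 (180 per kb) and Hoxc9 (138) led, followed by Hoxc5 (76.9), Hoxc13 (70.0) and Hoxc4 (68.6), which overlapped, then Hoxc10 (36.2) and Hoxc6 (25.0). In Mll1-KO cells Hoxc8 (294 per kb) led, followed by Hoxc9 (209), Hoxc5 (203) and Hoxc4 (195), which overlapped, and by Hoxc6 (51.8), Hoxc10 (48.4) and Hoxc13 (45.0), which overlapped as well. At day 0 Hoxc13 was the highest member per kb in each genotype, at 30.4 ± 10.5 in double-KO, 52.3 ± 7.42 in Mll2-KO, 13.2 ± 3.53 in Mll1-KO and 24.6 ± 0.86 in WT cells (SD, n = 3), and its libraries lay above those of every other member.

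**Figure D2:**
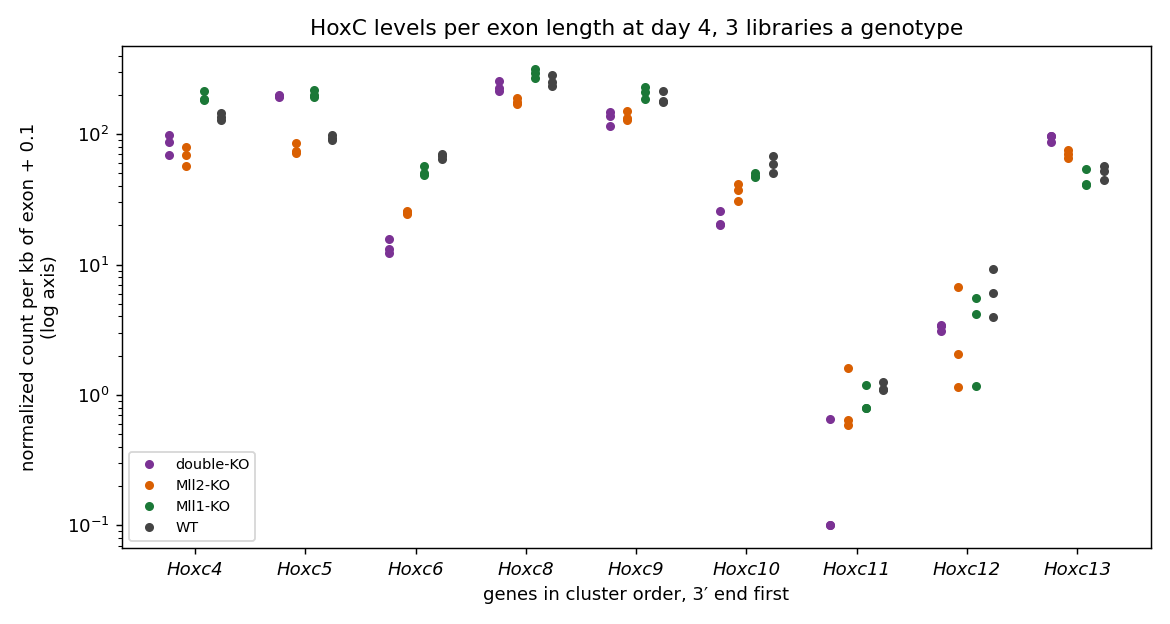
Normalized count per kb of exon, plus 0.1, on a log axis at day 4 for the 9 HoxC genes from the 3′ end (left) to the 5′ end (right), with 1 point per library and the double-KO left of the Mll2-KO, Mll1-KO and WT. Hoxc5 and Hoxc6, neighbours in the cluster, are 197 and 13.6 per kb on average in the double-KO and 94.2 and 67.8 per kb in WT.

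At day 4 the cluster split. In double-KO cells Hoxc6, Hoxc10, Hoxc4 and Hoxc9 fell against WT while Hoxc5 and Hoxc13 rose, so 6 of 7 tested genes were called, against 50.9% of 14303 genes. In Mll2-KO cells all 7 tested genes were called, against 45.7% of genes: 6 fell and Hoxc13 rose. In Mll1-KO cells Hoxc5 and Hoxc4 rose and Hoxc6 fell, 3 of 7, against 35.8% of genes. The median log2 change of the 7 genes was -0.51 in double-KO, -0.51 in Mll2-KO and 0.14 in Mll1-KO cells, beside 0.03, 0.04 and -0.0024 over all genes in the same order.

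Summed over the 9 genes, normalized counts were 2053 to 2233 in double-KO, 1445 to 1654 in Mll2-KO, 2745 to 2893 in Mll1-KO and 2124 to 2391 in WT libraries. The double-KO and WT ranges overlap although 6 of the 7 tested genes differed between them.

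**Figure D3:**
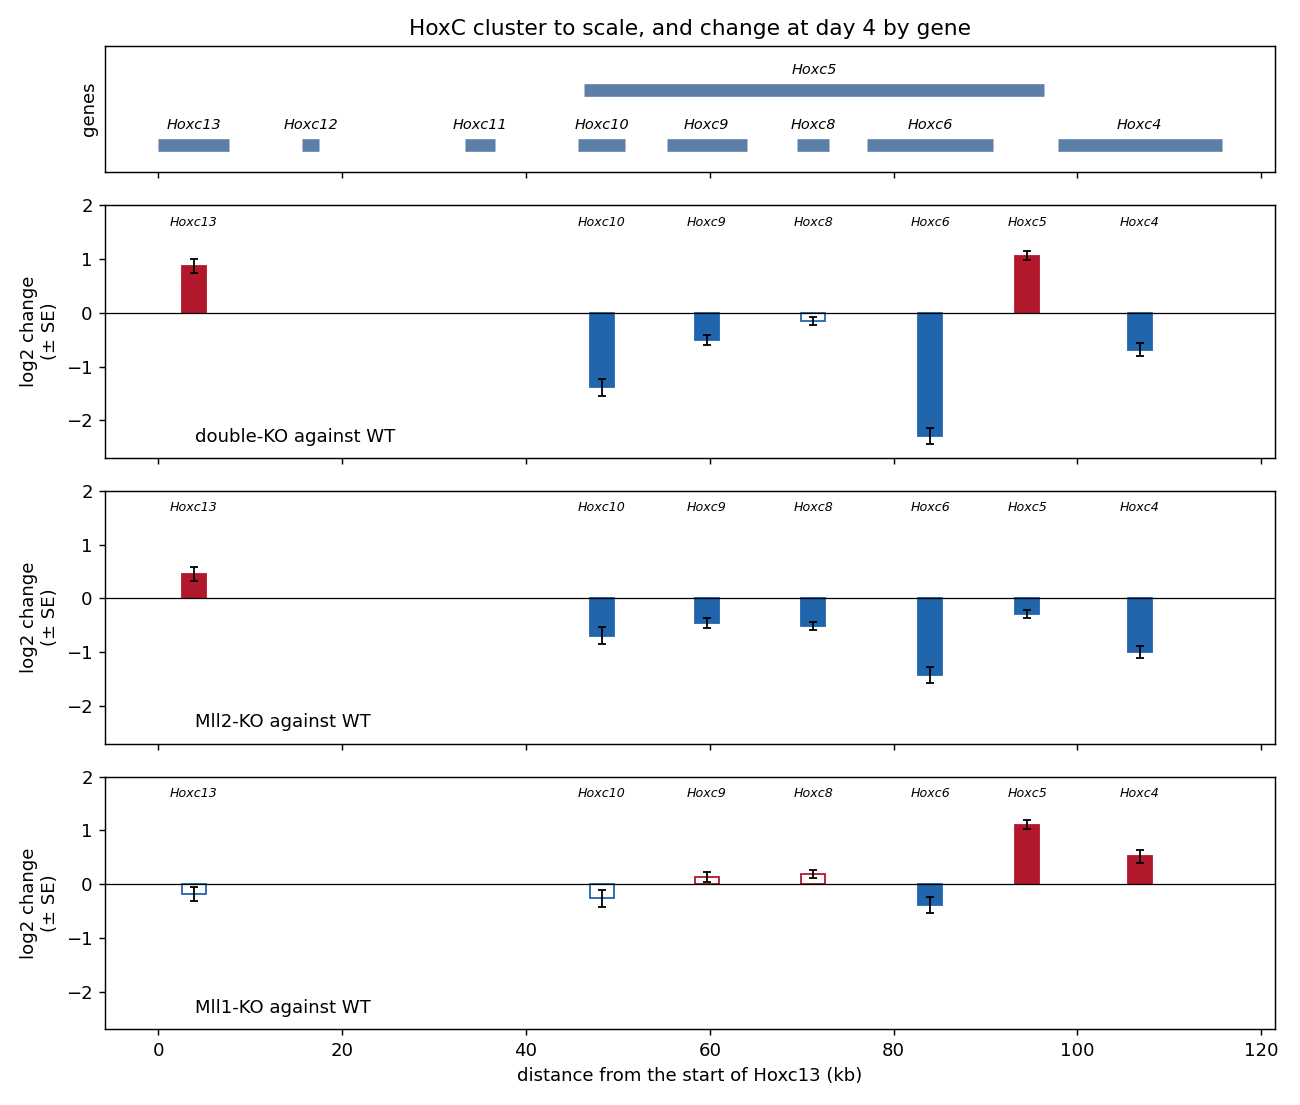
Top: the 9 HoxC genes to scale along 116 kb, from Hoxc13 on the left to Hoxc4 on the right. Below: log2 change at day 4 with SE for the double-KO, Mll2-KO and Mll1-KO against WT, filled where called and open where not, with Hoxc5 drawn at its downstream exons and no bar for Hoxc11 and Hoxc12, which were under the filter. Hoxc5 and Hoxc6 point in opposite directions in the double-KO (1.06 and -2.29) and in the same direction in the Mll2-KO (-0.30 and -1.42).

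Hoxc4, a gene of the neck and upper thorax, had 179, 224 and 253 in double-KO, 205, 147 and 177 in Mll2-KO, 479.6, 551 and 473 in Mll1-KO and 351, 327 and 371 in WT libraries. Double-KO and Mll2-KO libraries all lay below WT and Mll1-KO libraries all lay above it. The log2 change against WT was -0.69 (SE 0.12, adjusted p = 2.3e-05, limma) in double-KO, -0.996 (adjusted p = 1.4e-07) in Mll2-KO and 0.52 (adjusted p = 0.001) in Mll1-KO cells.

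Hoxc5, the neighbour of Hoxc4 and a member of the cervical group, had 619, 610.1 and 598 in double-KO, 228, 220.1 and 264 in Mll2-KO, 675, 599 and 611 in Mll1-KO and 306, 278 and 289.8 in WT libraries. Every double-KO and Mll1-KO library lay above every WT library, and every Mll2-KO library below. Against WT, Hoxc5 rose by 1.06 (SE 0.08, adjusted p = 2.2e-11, limma) in double-KO and by 1.11 (adjusted p = 3e-11) in Mll1-KO cells on the log2 scale, and fell by 0.30 (adjusted p = 0.0028) in Mll2-KO cells. It was the only tested HoxC gene with a call above WT in both genotypes that lack Kmt2a.

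Hoxc6 had 31.3, 29.1 and 37.6 in double-KO, 61.7, 58.1 and 61.1 in Mll2-KO, 117, 137 and 121 in Mll1-KO and 154, 164 and 171 in WT libraries. The 4 genotypes did not overlap. Against WT it fell by 2.29 (SE 0.15, adjusted p = 2.4e-12, limma) in double-KO, by 1.42 (adjusted p = 2e-08) in Mll2-KO and by 0.39 (adjusted p = 0.042) in Mll1-KO cells on the log2 scale, the lowest log2 change of the 7 tested genes in each mutant. The Mll1-KO call was lost with column totals (-0.34, adjusted p = 0.074), with DESeq2 (-0.38, adjusted p = 0.060) and without any 1 of WT replicate 1 (-0.43), 2 (-0.38) or 3 (-0.35) or Mll1-KO replicate 1 (-0.34) or 3 (-0.37), with adjusted p from 0.060 to 0.12.

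Hoxc8 had 604, 645 and 721 in double-KO, 540.0, 484 and 503 in Mll2-KO, 841, 757 and 899 in Mll1-KO and 804, 714 and 668 in WT libraries. The Mll2-KO libraries lay below all WT libraries, and the other mutants overlapped WT. The log2 change against WT was -0.51 (SE 0.08, adjusted p = 5.5e-06, limma) in Mll2-KO cells, and it was not called at -0.15 (adjusted p = 0.11) in double-KO and 0.19 (adjusted p = 0.052) in Mll1-KO cells. The double-KO value passed with column totals (-0.21, adjusted p = 0.026) and without WT replicate 3 (-0.21, adjusted p = 0.043) or double-KO replicate 3 (-0.22, adjusted p = 0.031), and the Mll1-KO value passed under 6 of the other settings and without WT replicate 1 (0.27, adjusted p = 0.012) or Mll1-KO replicate 2 (0.26, adjusted p = 0.019).

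Hoxc9 had 359, 282 and 333 in double-KO, 368, 313 and 325 in Mll2-KO, 456, 508 and 562 in Mll1-KO and 516, 431 and 439 in WT libraries. The double-KO and Mll2-KO libraries overlapped each other and lay below all WT libraries. Against WT it fell by 0.51 (SE 0.09, adjusted p = 8.2e-05, limma) in double-KO and by 0.46 (adjusted p = 0.00033) in Mll2-KO cells, and the Mll1-KO value of 0.14 (adjusted p = 0.28) was not called.

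Hoxc10 had 39.2, 38.3 and 49.0 in double-KO, 70.6, 58.1 and 78.6 in Mll2-KO, 95.6, 91.6 and 89.7 in Mll1-KO and 112, 95.2 and 129.6 in WT libraries. Double-KO, Mll2-KO and Mll1-KO libraries formed 3 separate steps, and the Mll1-KO step overlapped WT. Against WT Hoxc10 fell by 1.39 (SE 0.17, adjusted p = 1.3e-07, limma) in double-KO and by 0.69 (adjusted p = 0.0013) in Mll2-KO cells, and the Mll1-KO value was -0.27 (adjusted p = 0.22). Hoxc10 and Hoxc5 share 166 bases of exon and moved in opposite directions in the double-KO.

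Hoxc11 and Hoxc12, which like Hoxc10 and Hoxc13 belong to the posterior Hox groups, were near the floor. Hoxc11 had 1 read over the double-KO, 5 over the Mll2-KO, 4 over the Mll1-KO and 6 over the WT libraries of day 4. Hoxc12 had 8 reads over the double-KO, 10 over the Mll2-KO, 8 over the Mll1-KO and 18 over the WT libraries. Both were under the filter. In a fit with no filter, Hoxc11 was called lower in the double-KO against WT (-1.28, adjusted p = 0.018, limma) and against the Mll1-KO (-1.04, adjusted p = 0.040) at day 4, on the 1 to 6 reads above, and Hoxc12 was called in no comparison between genotypes at day 4. Against day 0, that fit called Hoxc11 higher in Mll2-KO (1.36, adjusted p = 0.0006, limma), Mll1-KO (1.40, 0.00039) and WT cells (1.37, 0.00052). It was not called in double-KO cells (0.36, adjusted p = 0.34). Hoxc12 was called higher in Mll1-KO (1.585, adjusted p = 0.036) and WT cells (1.635, 0.031), not in double-KO (0.45, 0.58) or Mll2-KO cells (0.67, 0.40). At day 0 Hoxc11 had 1 read over the WT libraries and Hoxc12 had 7. Hotair, the noncoding RNA between Hoxc11 and Hoxc12, had 2.81 in 1 Mll1-KO library of day 4 and was at 0 in the other 23 libraries.

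Hoxc13 had 216, 238 and 238 in double-KO, 172, 160.0 and 184 in Mll2-KO, 101, 99.3 and 132 in Mll1-KO and 140.2, 109 and 128 in WT libraries of day 4. Double-KO libraries lay above Mll2-KO libraries, these lay above WT, and Mll1-KO and WT overlapped. Against WT it rose by 0.87 (SE 0.12, adjusted p = 2.2e-06, limma) in double-KO and by 0.45 (adjusted p = 0.0043) in Mll2-KO cells on the log2 scale, and the Mll1-KO value of -0.19 (adjusted p = 0.25) was not called. The remaining tested genes that rose in any mutant at day 4 were Hoxc5 and Hoxc4.

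Loss of Mll2 on a background without Mll1 was read from the double-KO against the Mll1-KO. At day 4, 6 of 7 genes were called, against 54.8% of all genes: Hoxc6 fell by 1.90, Hoxc4 by 1.20, Hoxc10 by 1.12, Hoxc9 by 0.65 and Hoxc8 by 0.34 on the log2 scale, and Hoxc13 rose by 1.06 (SE 0.12, adjusted p = 9.7e-08, limma). Hoxc5 had a log2 change of -0.04 (SE 0.08, adjusted p = 0.65) and its libraries overlapped, with 598 to 619 in double-KO and 599 to 675 in Mll1-KO cells.

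Loss of Mll1 on a background without Mll2 was read from the double-KO against the Mll2-KO. At day 4, 6 of 7 genes were called, against 40.3% of all genes, 4 higher and 2 lower. Hoxc5 rose by 1.36 (SE 0.08, adjusted p = 6.8e-13, limma), Hoxc13 by 0.42 (adjusted p = 0.009) and Hoxc8 by 0.36 (adjusted p = 0.00043), while Hoxc6 fell by 0.87 (adjusted p = 3.4e-05) and Hoxc10 by 0.70 (adjusted p = 0.0015). Hoxc9 had a value of -0.05 (adjusted p = 0.71). Hoxc4 rose by 0.31 (adjusted p = 0.036) with overlapping libraries. The Hoxc4 call was lost without Mll2-KO replicate 2 (0.19) or 3 (0.32) or double-KO replicate 2 (0.29) or 3 (0.20), with adjusted p from 0.064 to 0.24, with no filter (adjusted p = 0.17), with DESeq2 (0.050) and in a fit of the 2 groups alone (0.056).

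Whether the effects of the 2 losses added up on the log2 scale was tested as an interaction. At day 4, 1 of 7 genes was called, against 13.6% of all genes: Hoxc13 lay 0.61 (SE 0.18, adjusted p = 0.023, limma) above the sum of the single effects. The call was lost with no filter (adjusted p = 0.086) and without WT replicate 1 (0.53), Mll1-KO replicate 2 (0.54), Mll2-KO replicate 2 (0.56) or double-KO replicate 2 (0.59), with adjusted p from 0.052 to 0.069. Hoxc6, the gene with the deepest fall, had -0.48 (SE 0.21, adjusted p = 0.13) and Hoxc10 -0.43 (SE 0.23, adjusted p = 0.23), neither called. Hoxc5 had 0.25 (SE 0.11, adjusted p = 0.13) and passed without Mll2-KO replicate 3 (0.33, adjusted p = 0.041).

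The contrast between neighbours was followed in each library as a ratio of normalized counts, which depends on exon lengths and is read between genotypes only. Hoxc5 over Hoxc6 was 15.9 to 20.9 in double-KO, 3.70 to 4.32 in Mll2-KO, 4.38 to 5.78 in Mll1-KO and 1.69 to 1.98 in WT libraries. The 4 ranges do not overlap. Hoxc13 over Hoxc10 was 4.86 to 6.20 in double-KO, 2.35 to 2.75 in Mll2-KO, 1.06 to 1.47 in Mll1-KO and 0.991 to 1.25 in WT libraries, and Mll1-KO and WT overlap. Hoxc5 over Hoxc4, the neighbour on the other side, averaged 2.85 ± 0.56 in double-KO, 1.37 ± 0.22 in Mll2-KO, 1.26 ± 0.16 in Mll1-KO and 0.834 ± 0.048 in WT libraries (SD, n = 3).

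**Figure D4:**
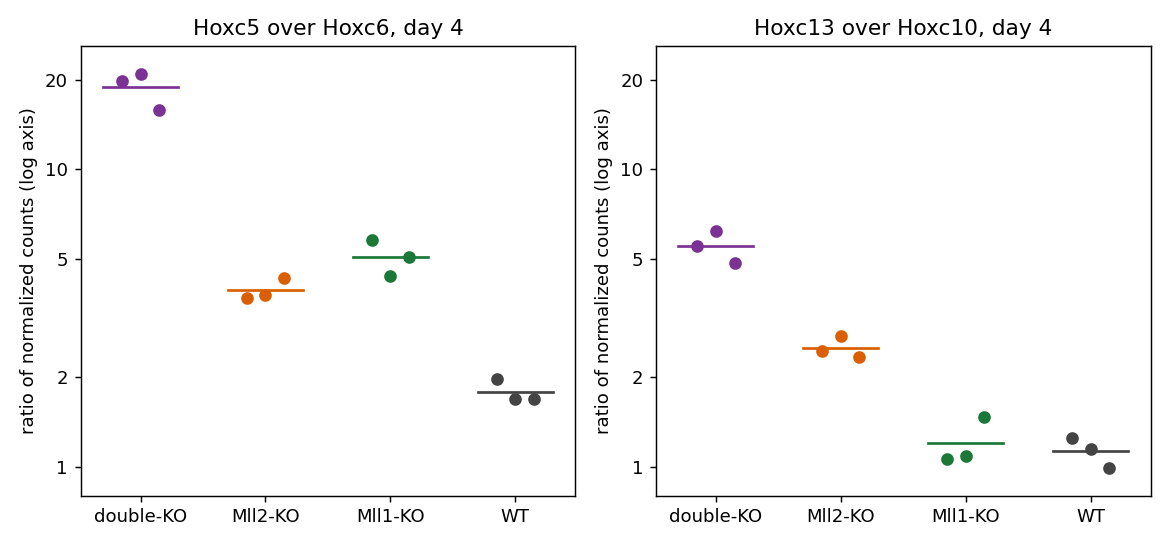
Ratio of normalized counts within each day 4 library on a log axis, Hoxc5 over Hoxc6 (left) and Hoxc13 over Hoxc10 (right), with a line at the mean of the 3 libraries. Hoxc5 over Hoxc6 averages 18.9 in the double-KO and 1.79 in WT, and Hoxc13 over Hoxc10 lies at 4.86 to 6.20 in the double-KO and 0.991 to 1.25 in WT.

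Over the 12 day 4 libraries, which share 4 genotypes and 1 set of size factors, Hoxc10 followed Hoxc6 most closely (Pearson r of log2 values 0.962). Hoxc13 ran against Hoxc6 (r = -0.905), Hoxc8 and Hoxc9 followed Hoxc4 (r = 0.886 and 0.857), and Hoxc5 had r = -0.234 with Hoxc6 and 0.444 with Hoxc4. The genes whose pattern was most like the mean log2 level of the 7 members, among 11802 genes compared, were St6gal1, a sialyltransferase (r = 0.979), Irak1bp1 (0.977), Fzd6, a Wnt receptor (0.977), Pde5a, a cGMP phosphodiesterase (0.976), and Sh3bgrl (0.976). Fzd6 averaged 266 in double-KO, 216 in Mll2-KO, 731 in Mll1-KO and 641 in WT libraries.

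At day 0 Hoxc13 was the one member with enough reads to test. It had 45.4, 85.0 and 93.7 in double-KO, 108, 135 and 143 in Mll2-KO, 37.0, 22.5 and 37.9 in Mll1-KO and 58.2, 61.5 and 62.1 in WT libraries. Mll2-KO lay above WT and Mll1-KO below it, and the double-KO libraries lay on either side of WT. Against WT the log2 change was 0.23 (SE 0.25, adjusted p = 0.45, limma) in double-KO, which is 0 of 1 gene called against 53.7% of 13984 genes, with an unadjusted p of 0.36 and 0 calls by edgeR and DESeq2 as well. It was 1.06 (adjusted p = 0.0013) in Mll2-KO, 1 of 1 against 47.2%, and -0.92 (adjusted p = 0.0052) in Mll1-KO cells, 1 of 1 against 40.0%.

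The double-KO of day 0 was higher than the Mll1-KO by 1.15 (adjusted p = 0.00093, limma), 1 of 1 gene against 41.0% of all genes, and fell by 0.83 (adjusted p = 0.0083) against the Mll2-KO, 1 of 1 against 47.7%. The call against the Mll2-KO was lost without double-KO replicate 1 (-0.51, adjusted p = 0.077) and with no filter (adjusted p = 0.058). The interaction of the 2 losses was 0.08 (SE 0.35, adjusted p = 0.92, unadjusted p = 0.81), 0 of 1 gene against 9.13%, and 0 by edgeR and DESeq2. The Mll1-KO value was thus called below WT at day 0 and not called at day 4, and the test of that difference is the change between days.

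Whether a mutant effect differed at day 4 from day 0 was tested with an interaction term over all 24 libraries. For the double-KO, 3 of 7 genes were called, against 39.4% of 15114 genes: Hoxc5 at 1.71 (adjusted p = 0.016, limma), Hoxc10 at -1.77 (adjusted p = 0.027) and Hoxc6 at -2.05 (adjusted p = 0.019). For the Mll2-KO, 2 of 7 were called, against 36.3%: Hoxc8 at -1.38 (adjusted p = 0.0053) and Hoxc6 at -1.89 (adjusted p = 0.032). For the Mll1-KO, 1 of 7 was called, against 34.0%: Hoxc5 at 1.58 (adjusted p = 0.029). Hoxc13 had 0.64 (adjusted p = 0.090) in double-KO, -0.61 (adjusted p = 0.11) in Mll2-KO and 0.73 (adjusted p = 0.061) in Mll1-KO cells. Its Mll2-KO value passed with edgeR (adjusted p = 0.030), DESeq2 (0.031) and only the groups compared (0.026). Its Mll1-KO value passed with column totals (0.032) and DESeq2 (0.040), among others, and its double-KO value without day 0 double-KO replicate 3 (0.030). Hoxc9 in Mll1-KO cells, not called at 1.64 (adjusted p = 0.14, limma), passed with edgeR (0.045) and DESeq2 (0.0068), among others. Apart from Hoxc13 these genes had between 0 and 16 reads over the 3 libraries of a day 0 group except Hoxc4 (15 to 42), so the values depend on the count added before the log.

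None of these interaction calls held in every alternative, and their counts were near or below the shares of all genes. Hoxc5 in the double-KO was lost without day 0 WT replicate 2 (1.18, adjusted p = 0.070), with quantile scaling (1.22, adjusted p = 0.11), with edgeR (2.79, adjusted p = 0.057) and with DESeq2 (3.06, adjusted p = 0.058). Hoxc6 in the double-KO was lost without day 0 WT replicate 2 or 3 (-1.76 each) or day 0 double-KO replicate 1 (-1.72), with a pseudocount of 0.5 (adjusted p = 0.086), with edgeR (-1.24, adjusted p = 0.73) and with DESeq2 (-1.05, adjusted p = 0.62). Hoxc10 was lost with a pseudocount of 0.5 (adjusted p = 0.063) and without day 0 WT replicate 2 (-1.61) or 3 (-1.62), day 0 double-KO replicate 3 (-1.29), day 4 WT replicate 3 (-1.66) or day 4 double-KO replicate 1 (-1.72) or 2 (-1.70). Hoxc8 in the Mll2-KO held without each library in turn and was lost with edgeR (-3.51, adjusted p = 0.056) and DESeq2 (-3.05, adjusted p = 0.084). Hoxc6 in the Mll2-KO was lost without day 0 WT replicate 2 or 3 (-1.60 each), day 0 Mll2-KO replicate 3 (-1.27) or any 1 day 4 library of WT or Mll2-KO (-1.85 to -1.93), with a pseudocount of 0.5 (adjusted p = 0.077), with no filter (0.054) and with edgeR (0.064). Hoxc5 in the Mll1-KO was lost without any 1 of day 0 WT replicate 2, day 0 Mll1-KO replicate 1 or 2, day 4 WT replicate 2 or 3 and day 4 Mll1-KO replicate 1 (1.04 to 1.57), with a pseudocount of 0.5 (adjusted p = 0.083), with no filter (0.053), with edgeR (0.15) and with DESeq2 (0.17).

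Beside the other Hox clusters at day 4, listed with earlier results of these data known, HoxC had 2 of 7 tested genes higher and 4 lower in the double-KO against WT (median -0.51). Of the other clusters, 2 of 10 tested HoxA genes were higher and 5 lower (median -0.98), 1 of 10 HoxB genes higher and 7 lower (median -0.42), and 0 of 7 HoxD genes higher and 4 lower (median -0.61), against 27.6% of all genes higher and 23.3% lower. Hoxa9 fell by 3.61, Hoxb13 by 1.92 and Hoxd13 by 1.92. In Mll2-KO cells 1 HoxA gene was higher and 6 lower (median -0.35), 0 HoxB genes higher and 8 lower (median -0.57) and 0 HoxD genes higher and 3 lower (median -0.55), against 25.4% of all genes higher and 20.3% lower. In Mll1-KO cells 2 HoxA genes were higher and 4 lower (median -0.34), 4 HoxB genes higher and 2 lower (median -0.11) and 3 HoxD genes higher and 0 lower (median 0.17), against 16.5% higher and 19.2% lower. Hoxb5, the paralog of Hoxc5 in HoxB, rose by 0.47 (adjusted p = 0.00012, limma) in Mll1-KO cells and fell by 0.91 (adjusted p = 5e-09) in Mll2-KO cells. In double-KO cells Hoxb5 fell by 0.52 (adjusted p = 1.8e-05, limma), whereas Hoxc5 rose by 1.06. Hoxa5, the paralog in HoxA, had -0.005 (adjusted p = 0.93, limma) in double-KO, -0.17 (adjusted p = 0.0022) in Mll2-KO and 0.27 (adjusted p = 2.1e-05) in Mll1-KO cells.

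The genes that flank the cluster differed from WT by at most 0.42 on the log2 scale at day 4. The median log2 change of the 8 tested neighbours against WT at day 4 was 0.09 in double-KO, -0.02 in Mll2-KO and 0.03 in Mll1-KO cells. In double-KO cells 4 were higher and 1 lower, where 27.6% of all genes were higher and 23.3% lower. Smug1 (0.42), Zfp385a (0.30), Itga5 (0.17) and Calcoco1 (0.16) rose there and Hnrnpa1 (-0.18) fell. In Mll2-KO cells Atp5g2 (0.28) rose and no other neighbour was called, against 25.4% of all genes higher and 20.3% lower. In Mll1-KO cells Zfp385a (0.33), Calcoco1 (0.29) and Smug1 (0.29) rose and Copz1 (-0.12) fell, against 16.5% higher and 19.2% lower. Cbx5 was not called in any of the 3 comparisons, with values from -0.04 to 0.02. Nfe2 and Gpr84 were under the filter.

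Among 13 tested genes of RA synthesis, binding, breakdown and reception, 1 was higher and 7 lower in double-KO against WT at day 4 (median -0.20), 3 higher and 6 lower in Mll2-KO (median -0.09), and 6 higher and 2 lower in Mll1-KO cells (median 0.10). Over all genes tested, 27.6% were higher and 23.3% lower in double-KO, 25.4% and 20.3% in Mll2-KO, and 16.5% and 19.2% in Mll1-KO cells. Aldh1a2, which makes RA, fell by 3.46 in double-KO and by 3.17 in Mll2-KO cells and rose by 0.68 in Mll1-KO cells. Of 9 Hox cofactors 4 were higher and 1 lower in double-KO (median 0.12), 1 higher and 4 lower in Mll2-KO (median -0.11) and 6 higher and 0 lower in Mll1-KO cells (median 0.23), beside the same shares of all genes. Pbx3, a partner of Hox proteins on DNA, fell by 1.15 in double-KO and by 1.01 in Mll2-KO cells and rose by 0.52 in Mll1-KO cells. Of 3 tested caudal regulators none was called in double-KO. In Mll2-KO cells Cdx1 rose by 1.01 and Gdf11 fell by 0.32, and in Mll1-KO cells Cdx1 fell by 1.04, Cdx2 fell by 0.93 and Gdf11 rose by 0.56. Cdx factors activate Hox genes in the trunk.

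Marker lists of other cell types also differed between the day 4 genotypes. The 8 stem cell markers summed to 3915 to 4096 in double-KO, 6817 to 7948 in Mll2-KO, 1967 to 2369 in Mll1-KO and 3877 to 5129 in WT libraries. The 11 fibroblast markers summed to 17724 to 18487 in double-KO, 11468 to 12525 in Mll2-KO, 10858 to 11463 in Mll1-KO and 9454 to 9996 in WT libraries. Single markers went both ways. Against WT, 5 were higher and 4 lower in double-KO (median log2 change -0.02), where 27.6% of all genes were higher and 23.3% lower. In Mll2-KO cells 4 were higher and 3 lower (25.4% and 20.3%), and in Mll1-KO cells 3 and 2 (16.5% and 19.2%). The largest changes in double-KO were Col1a2 (-2.965), Lum (1.72) and Thy1 (-1.43). The 5 kidney, lateral mesoderm and mesothelium markers summed to 903 to 998 in double-KO, 910 to 1007 in Mll2-KO, 2228 to 2342 in Mll1-KO and 1598 to 1732 in WT libraries. The 7 endoderm markers summed to 9148 to 9749, 14179 to 14876, 6618 to 6965 and 10839 to 11309 in double-KO, Mll2-KO, Mll1-KO and WT, the 8 neural markers to 5906 to 6448, 3395 to 4163, 4507 to 5205 and 3669 to 4172, and the 6 measured paraxial mesoderm markers to 465 to 506, 681 to 793, 768 to 932 and 859 to 903. Mesp1 in Mll1-KO libraries was the one marker at 0 at day 4. The part of these differences in the HoxC values was not tested.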

How the data were processed

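PolyA RNA sequencing (TruSeq stranded mRNA, per the labels) of 24 libraries in 8 groups was taken from 1 deposited table of 19953 genes. Its unit is signal: the deposited signal is a gene's read count divided by a size factor of the library. The submitters' processing notes name, with the mm10 build, DESeq2 1.34.0, RSEM 1.3.1, STAR 2.7.10a, SAMtools 1.13, Trim Galore 3.4 and FastQC. The annotation, the strand setting and the handling of shared reads are not given in the sources used here. The size factors were inferred, with the smallest value above 0 in a library taken as 1 read. On that scale 100% of values were whole reads within 1e-06, though they may be rounded RSEM estimates. Totals were 10.7 to 22.8 M reads. Column names for WT at day 0 contain 1 extra letter of unstated meaning, and no other WT columns exist for that day. No column was left without a sample.

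The test was limma 3.58.1 (R 4.3.3) (trend option) on log2(normalized count + 1). The filter asked for a normalized count of 10 or more in 3 or more libraries of the fit and kept 13984 genes at day 0, 14303 at day 4 (each with 12 libraries) and 15114 across days (24 libraries). Calls used a Benjamini-Hochberg adjusted p below 0.05 over all genes, two-sided. As alternatives, the pseudocount was set to 0.5 or 5, the filter was dropped or raised to 50, libraries were scaled by quantiles or to column totals, replicate number was added as a block, the fit was limited to the groups compared, and each library was left out in turn. DESeq2 1.42.0 and edgeR 4.0.16 (quasi-likelihood, TMM) were run on the recovered reads. The fit was tested on simulated data.

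All 9 HoxC genes were named. Genes alike in pattern were the 5 named genes outside the Hox family with the highest Pearson r with the members' mean log2 level over the 12 day 4 libraries, at a mean of at least 50 in 1 group. Lists were HoxA, HoxB, HoxD, Hox cofactors, caudal regulators, RA pathway, HoxC neighbours, Polycomb repressive complex 2, the MLL1 and MLL2 complex and 6 sets of cell type markers, with at most 3 genes named per list and comparison by size of change. Cbx5, Nfe2, Gpr84 and Hotair belong to the locus, and all of its neighbours are named. Hoxb5 and Hoxa5 are named as paralogs of Hoxc5 and not by size of change. Members and lists were chosen with earlier results of these data known. The labels do not say whether replicate numbers pair the libraries, and the main fit used no pairing. Over 36 pairs of same-numbered libraries the residuals had a median correlation of 0.0174 (-0.0443 to 0.0926). Over 72 pairs with other numbers it was -0.0109 (-0.137 to 0.0711). Such correlations cannot decide whether libraries shared a culture. Exon lengths and positions are from GENCODE mouse release 21.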

Additional observations from a re-analysis of the deposited data

Results flagged for a closer look

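For 7 results a mutant effect differed between 2 settings by the interaction test itself, at counts near or below the shares of all genes. The effect of losing both enzymes on Hoxc13 at day 4 was 0.61 above the sum of the single effects (log2, adjusted p = 0.023, limma), 1 of 7 genes against 13.6% of all genes. The effect of the double-KO differed between day 4 and day 0 for Hoxc5 (1.71), Hoxc10 (-1.77) and Hoxc6 (-2.05), 3 of 7 genes against 39.4% of all genes. The effect of the Mll2-KO differed between days for Hoxc6 (-1.89) and Hoxc8 (-1.38), 2 of 7 against 36.3%, and that of the Mll1-KO for Hoxc5 (1.58), 1 of 7 against 34.0%. Each of the 7 calls was lost under at least 1 alternative, that of Hoxc6 in the double-KO with DESeq2 among others (adjusted p = 0.62). The between-day values set 29.1 to 899 normalized counts per library at day 4 beside 0 to 16 reads per group at day 0.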

How the results depend on the processing

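Over 97 gene-level results and 1726 alternatives, 1622 kept their side of the threshold (21 of them uncalled values whose sign differed), 62 lost a call, 42 gained one and 0 called values changed sign; 67 results kept side and sign throughout. The 7 calls of Mll2-KO against WT at day 4 held in every setting, 7 without each library in turn. With no filter, calls dropped to 0 for double-KO against Mll2-KO at day 0 (0 to 1 without each library), to 0 for the interaction at day 4 (0 to 2), and to 0 for the change between days in Mll1-KO and 1 in Mll2-KO. For the change between days, Mll1-KO had 1 call, and 0 with a pseudocount of 0.5, 2 with column totals, 2 with only the groups compared, 3 with DESeq2 and 0 to 3 without each library. Mll2-KO had 2, and 1 with a pseudocount of 0.5, 4 with 5, 4 with DESeq2, 4 with only the groups compared and 1 to 3 without each library. The double-KO had 3, and 1 with a pseudocount of 0.5, 1 with edgeR, 1 with DESeq2 and 0 to 3 without each library. The cause was not tested.

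Replicate number was also used as a block, though the labels do not say that the numbers pair libraries. The change between days in Mll1-KO then had 2 calls, adding Hoxc13 (0.73, adjusted p = 0.047, limma), and no other count moved by over 1.5 times. At day 0, where the libraries were deeper than at day 4, low counts limit 8 of the 9 genes. Reads of the exon shared by Hoxc5 and Hoxc10 cannot be assigned.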

Other observations

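Subunits of the enzymes that act on Hox clusters were counted against WT at day 4, where 27.6% of all genes were higher and 23.3% lower in double-KO, 25.4% and 20.3% in Mll2-KO, and 16.5% and 19.2% in Mll1-KO cells. Of 7 Polycomb repressive complex 2 genes, 0 were higher and 4 lower in double-KO against WT (median log2 change -0.16), 2 higher and 0 lower in Mll2-KO (0.08), and 0 higher and 5 lower in Mll1-KO (-0.21). Ezh1, a catalytic subunit, fell by 0.25 in double-KO, rose by 0.52 in Mll2-KO and fell by 0.46 in Mll1-KO cells on the log2 scale. Phf19, an accessory subunit, fell by 1.23 in double-KO. Of 9 genes of the MLL1 and MLL2 complex, 2 were higher and 3 lower in double-KO, 2 higher and 0 lower in Mll2-KO, and 1 higher and 3 lower in Mll1-KO, with Kmt2a, the deleted gene, among those lower in both genotypes without it. With 9 genes these counts are not far from the shares of all genes. Their relation to the HoxC values was not tested.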
